A study of Mus musculus with 12 samples.

Results

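The 33 genes described here carry sugar into the cell, take it through glycolysis to pyruvate, turn pyruvate into lactate or admit it to the mitochondrion. They were chosen by name as the glucose transporters, glycolytic enzymes, lactate dehydrogenases, lactate transporters and pyruvate dehydrogenase subunits and kinases, and all 33 are among the 55487 genes of the counts table. Earlier results of these data were known when the genes were chosen. B16F10 cells, a mouse melanoma line with the genotype label WT, were grown for 24 h in medium from bone-marrow-derived macrophages, and their RNA was sequenced. In the TAM group the macrophages had first received 75% medium conditioned by B16F10 cells for 24 h, in the M1 group 20 ng/ml of a cytokine the labels call INF-γ (read here as interferon gamma), in the M2 group 20 ng/ml of interleukin-4 (IL-4), and in the M0 group control DMEM. TAM stands for tumour-associated macrophage in the series. Each group has 3 libraries, so there are 12 in all, and libraries are named below by the macrophage medium the melanoma cells received. The title of TAM replicate 2 has B16F107 where those of replicates 1 and 3 have B16F10, and it was grouped by its treatment label, which is the same for all 3. No transgene or deletion is named for any group. Whether the macrophages were washed free of cytokine or tumour medium before their own medium was harvested is not stated. Nor is it stated that replicate libraries stem from separate cultures, and a p-value here therefore covers the spread among libraries only, part or all of which may be technical.

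Glycolysis splits glucose into pyruvate in the cytosol and yields ATP and NADH without oxygen. Lactate dehydrogenase can pass the electrons of that NADH to pyruvate, and the lactate formed leaves through monocarboxylate transporters, while pyruvate dehydrogenase instead sends pyruvate carbon into the citric acid cycle. Tumour cells, melanoma cells among them, commonly take up much glucose and release lactate even when oxygen is present, and the transcription factors HIF-1 and Myc are known to raise many genes of the pathway.

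Library totals lay between 15916756 and 20863973 counts. M0 replicate 1 stood apart: 7.13% of its counts fell on ribosomal protein genes, against 3.22 to 3.76% in the 11 others, and its log2 levels correlated at 0.945 and 0.948 across genes with those of the other M0 libraries, against 0.992 to 0.993 for every other pair within a group. Exon length weighted by counts, a measure of which transcripts a library holds, was 6008 to 6091 bp in TAM libraries, 5843 to 5855 bp in M1 libraries, 5817 to 5952 bp in M2 libraries, 5853 and 5858 bp in M0 replicates 3 and 2 and 4545 bp in M0 replicate 1, so the TAM libraries lay above all others, and the part of this shift in the results was not tested. Every comparison is therefore given with all 12 libraries, and its count of called genes also without M0 replicate 1. Sizes of single changes are given without that library for part of the genes. The 10 melanocyte markers were all tested and their summed level was 21978 to 22974 CPM (counts scaled to a common library size) in TAM libraries, 19937 to 20228 in M1 libraries, 25656 to 26019 in M2 libraries and 27459 to 27570 in M0 libraries. Compared with M0, 7 of the 10 fell in TAM libraries (median log2 change -1.08) and 6 in M1 libraries (median -0.52), and none rose. Of all genes tested, 27.2% fell in TAM libraries and 13.5% in M1 libraries. With M0 replicate 1 left out, 8 fell and 1 rose in each, with medians of -1.15 in TAM libraries and -0.58 in M1 libraries. In that fit 33.7% and 22.9% of all genes fell, and 33% and 24.3% rose. In M2 libraries 0 of the 10 fell, or 3 without M0 replicate 1, where 0.134% of all genes fell. Of 23 macrophage markers only 5 were abundant enough to test. They summed to 4.08 to 5.03 CPM in TAM libraries, 8.22 to 8.53 in M1 libraries, 6.02 to 6.72 in M2 libraries and 5.32 to 8.13 in M0 libraries, and Ptprc, Adgre1, Itgam, Tyrobp and the C1q genes were at 0 in every group. Of 12 fibroblast and endothelial markers 5 were tested, with sums of 41.4 to 43.6 CPM in TAM libraries, 18.0 to 22.2 in M1 libraries, 28.6 to 30.9 in M2 libraries and 21.9 to 28.4 in M0 libraries. The part of the melanocyte, macrophage and fibroblast marker shifts in the results on sugar metabolism was not tested, and in these bulk samples fewer cells with a transcript and less transcript per cell cannot be told apart.

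The upstream sequences of these genes are shown first, and their part in the changes below was not tested. RefSeq (GRCm38.p6) gave the 250 bases before a start site for 32 of the 33 genes, at 48 starts, and none for Slc2a3. The core of a HIF site, ACGTG or GCGTG, was looked for on both strands. At least 1 copy stood upstream of 27 of the 32 genes (84.4%), against 41.5% of the 27025 genes of the same table. The E-box CACGTG, which binds Myc and its relatives and itself contains ACGTG, stood upstream of 6 of the 32 (18.8%), against 6.86% of all genes. The windows of these genes also held more G and C, a median of 60.4% against 52.4% for all promoters, and the part of base composition in the share with a core was not tested. TGATGNAA, the element of ATF4 and CHOP, and an interferon-stimulated element (GAAA, any 2 bases, GAAA) were in none of the 32, against 3.91% and 3.46% of all genes. TTCNNNGAA, a STAT element, was upstream of Aldoc and Pfkm (6.25%, against 8.13% of all genes). A match is a run of letters and not a shown binding site. The windows of Ldha, Slc16a3 and Pgk1 are printed as examples of genes that fell in cells grown in TAM medium. Those of Pfkfb3 and Eno2 are printed because both rose there. Capitals mark HIF cores and E-boxes on either strand, and all run 5′ to 3′ along the gene's own strand.
Ldha (chr7:46845554-46845803, plus strand): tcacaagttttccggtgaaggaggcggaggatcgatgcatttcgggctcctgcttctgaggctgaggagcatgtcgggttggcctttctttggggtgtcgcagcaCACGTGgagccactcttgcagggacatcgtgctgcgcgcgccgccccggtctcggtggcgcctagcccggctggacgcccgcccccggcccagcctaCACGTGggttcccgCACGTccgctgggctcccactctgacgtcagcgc
Slc16a3 (chr11:120948817-120949066, plus strand): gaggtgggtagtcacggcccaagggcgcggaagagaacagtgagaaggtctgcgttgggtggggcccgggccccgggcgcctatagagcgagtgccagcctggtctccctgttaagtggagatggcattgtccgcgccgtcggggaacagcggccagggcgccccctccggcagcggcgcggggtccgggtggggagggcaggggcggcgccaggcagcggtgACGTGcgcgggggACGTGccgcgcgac
Pgk1 (chrX:106186850-106187099, plus strand): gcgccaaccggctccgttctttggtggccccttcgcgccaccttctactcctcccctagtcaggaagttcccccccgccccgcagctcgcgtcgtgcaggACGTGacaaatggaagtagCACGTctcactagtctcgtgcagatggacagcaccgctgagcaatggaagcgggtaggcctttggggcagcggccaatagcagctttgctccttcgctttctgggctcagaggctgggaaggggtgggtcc
Pfkfb3 (chr2:11502091-11502340, minus strand): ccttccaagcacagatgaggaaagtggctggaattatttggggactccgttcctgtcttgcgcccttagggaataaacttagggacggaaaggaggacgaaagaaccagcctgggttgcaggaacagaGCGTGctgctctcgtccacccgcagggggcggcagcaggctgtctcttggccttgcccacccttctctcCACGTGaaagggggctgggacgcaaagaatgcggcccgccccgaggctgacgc
Eno2 (chr6:124769674-124769923, minus strand): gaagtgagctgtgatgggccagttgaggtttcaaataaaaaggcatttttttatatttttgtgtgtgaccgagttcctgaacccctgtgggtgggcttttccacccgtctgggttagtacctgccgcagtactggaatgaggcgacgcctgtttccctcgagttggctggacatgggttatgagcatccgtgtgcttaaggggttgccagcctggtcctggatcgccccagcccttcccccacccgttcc
The Ldha window holds 5 cores, 4 of them the overlapping forward and reverse cores of its 2 E-boxes. The Slc16a3 and Pgk1 windows each hold 2 cores, the Pfkfb3 window holds 3 with 1 E-box, and the Eno2 window holds none. Among other genes that fell, the windows of Pfkp and Pgam1 each hold 3 cores, those of Ldhb and Pfkl 1, and those of Gpi1 and Tpi1 0. Of the 32 genes, 11 have more than 1 RefSeq start, among them Ldha, whose other window holds 1 core and no E-box, and Pfkfb3, whose other window holds 1 core. A gene was counted as holding a core if any of its windows did. The 32 genes had 48 windows and the 27025 genes had 32851, so the 32 had more windows per gene. The shares of genes with a core or an E-box were not corrected for that. Cores were not confined to genes that moved one way. They stood upstream of 18 of the 21 genes that fell in TAM libraries compared with M0 libraries (all but Gpi1, Tpi1 and Bpgm), of 3 of the 4 that rose and have a window (all but Eno2), and of 5 of the 6 that were not called (all but Tigar).

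Melanoma cells in TAM medium carried less messenger RNA for nearly the whole path from glucose phosphate to lactate. The 16 genes of the 10 enzyme steps from hexokinase to pyruvate kinase took 0.797 ± 0.020% of all counts in TAM libraries, 1.30 ± 0.033% in M1 libraries, 1.63 ± 0.088% in M2 libraries and 1.89 ± 0.456% in M0 libraries (SD, n = 3 each). Without replicate 1 the M0 mean was 1.63%, the same as in M2 libraries. All 33 genes together took 0.939 ± 0.021% of counts in TAM libraries, 1.51 ± 0.044% in M1 libraries, 1.94 ± 0.107% in M2 libraries and 2.22 ± 0.50% in M0 libraries, or 1.94% in M0 libraries without replicate 1. Of the 33, 32 could be tested. Pdk4, a pyruvate dehydrogenase kinase induced by fasting in many tissues, had 0 counts in all 12 libraries. In TAM libraries compared with M0 libraries, 21 of the 32 fell and 5 rose, and 6 were not called. Over all 14591 genes tested 50.5% were called in that comparison (27.2% lower, 23.3% higher), and the median log2 change was -1.01 for the 32 genes and -0.02 for all genes. A gene was called at an adjusted p under 0.05 in edgeR's quasi-likelihood test with Benjamini-Hochberg adjustment, and every adjusted p for a single gene below comes from it. Without M0 replicate 1, 25 fell, 5 rose and 2 were not called, against 66.7% of all genes called (33.7% lower, 33% higher), and the median of the 32 was -0.82. In 28 of the 32 the TAM and M0 libraries did not overlap. The share of all genes without overlap was not counted, so that number has no background to be read against.

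**Figure D1:**
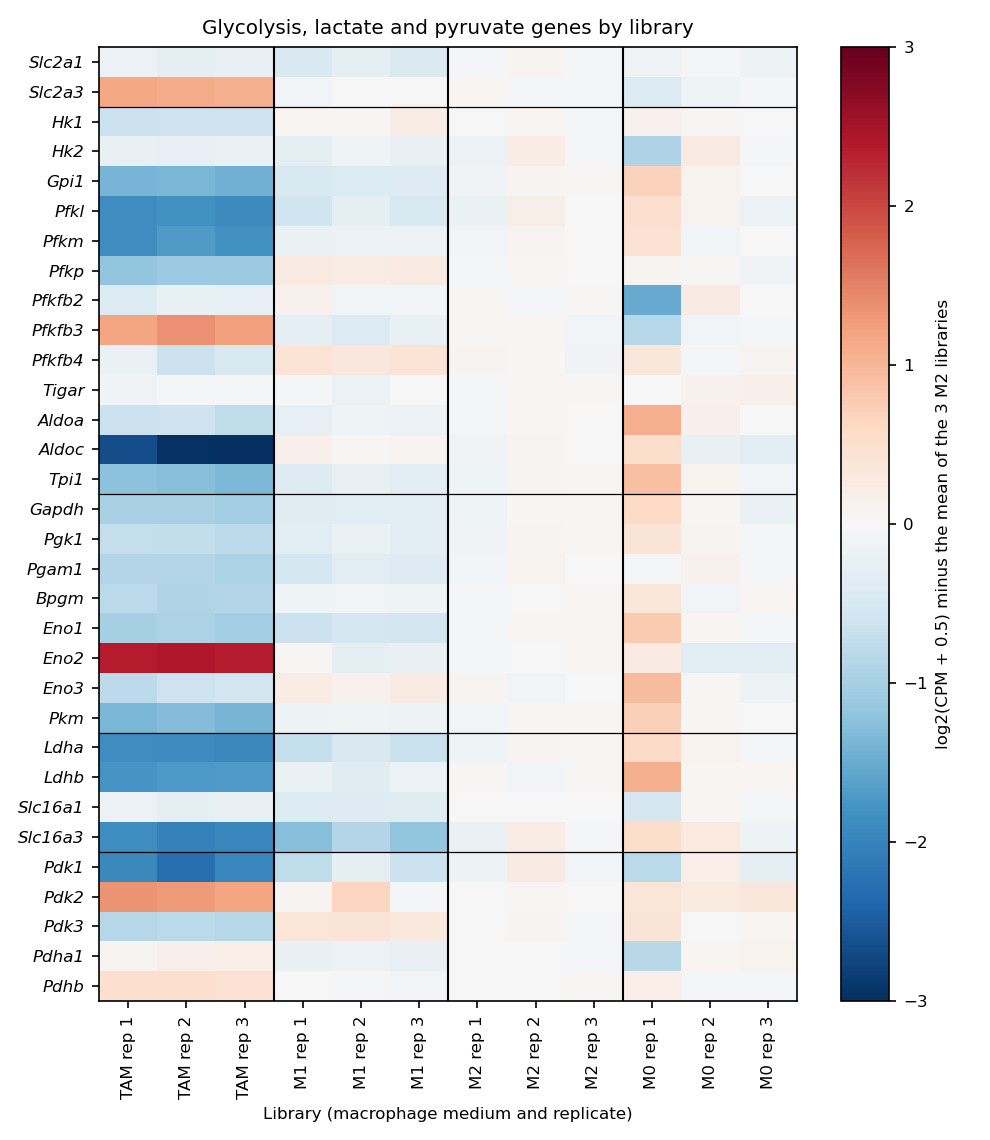
Each row is 1 of the 32 tested genes and each column 1 library, grouped by macrophage medium. Colour gives log2(CPM + 0.5) minus the mean of the 3 M2 libraries of that gene, so blue is lower and red higher. Most rows are blue in the 3 TAM columns, while Slc2a3, Pfkfb3, Eno2 and Pdk2 are red there, and the column of M0 replicate 1 differs from the 2 other M0 columns in many rows.

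Levels of different genes are compared per length, as CPM per kilobase of merged exons. The order is given for M2 libraries, since M0 holds the replicate that stood apart. There Pgk1 stood highest at 895 CPM per kb. Eno1 followed at 781, Pkm at 681, Ldha at 600.0 and Tpi1 at 596. Eno2, Pfkfb4, Pfkfb2 and Pdk2 stood lowest among the genes with counts, between 0.458 and 5.26 CPM per kb. The order rests on the merged length, 2244 bp for Pgk1, 5379 bp for Eno1 and 5001 bp for Pkm. In CPM, the M2 means were 2009 for Pgk1, 4202 for Eno1 and 3405 for Pkm. Merged exons take in every annotated transcript, used or not, so levels and shares per length carry that uncertainty. The steps differed in how far they were reduced. Summed over isozymes, lactate dehydrogenase was at 22.6% of its M0 mean in TAM libraries (26.8% without M0 replicate 1) and phosphofructokinase at 28.9% (32.4%). Phosphoglycerate kinase kept 53.7% (58.9%) and phosphoglycerate mutase 52.6% (51.5%). For the glucose transporters and the pyruvate dehydrogenase E1 subunits the sums were higher in each TAM library than in any M0 library. For the lactate transporters the sum was lower, at 59.1% of its M0 mean (58.7% without M0 replicate 1). No test was run on these sums. The glucose transporters were at 119% and the pyruvate dehydrogenase E1 subunits at 130.3% of their M0 means (117% and 122.8% without M0 replicate 1). The 3 PFKFB genes, whose enzymes make and break the activator of phosphofructokinase, summed to 199.6% (176% without M0 replicate 1).

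**Figure D2:**
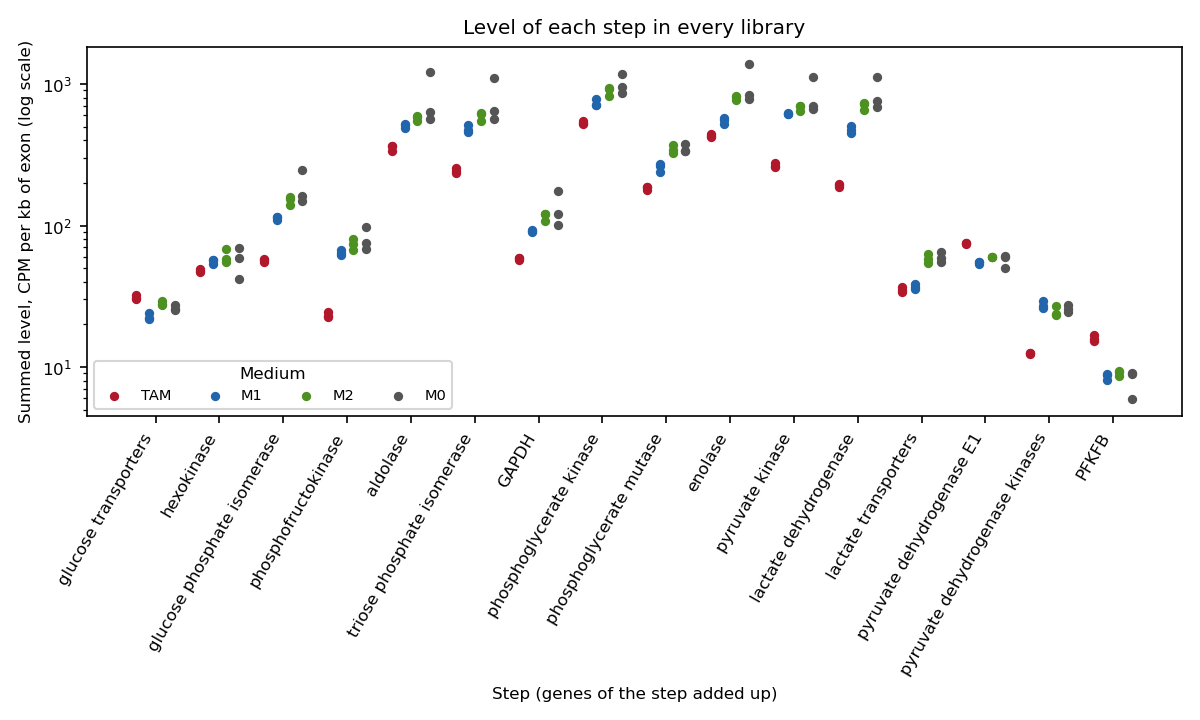
Summed level of the genes of each step, in CPM per kb of exon on a log axis, with 1 point per library in the order TAM, M1, M2, M0 within each step. TAM points lie lowest at every step from glucose phosphate isomerase to lactate dehydrogenase, and highest for the glucose transporters, pyruvate dehydrogenase E1 and PFKFB.

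Glucose crosses the cell membrane through carriers such as GLUT1 and GLUT3, the products of Slc2a1 and Slc2a3, and is trapped in the cell by hexokinase. GLUT3, which has a higher affinity for glucose than GLUT1 and is best known from neurons, was the transporter that rose. Slc2a3 (ENSMUSG00000003153, chr6:122727809-122801640, minus strand) had 88.1, 85.3 and 81.8 CPM in TAM libraries, 36.9, 38.8 and 38.8 in M1 libraries, 40.5, 38.3 and 38.4 in M2 libraries and 29.3, 35.5 and 38.1 in M0 libraries. All 3 TAM libraries lay above all 9 others, and the log2 change from M0 was 1.31 ± 0.10 (SE), 2.48-fold (adjusted p = 1.96e-06). Slc2a1 had 70.4, 65.6 and 67.6 CPM in TAM libraries, 58.4, 65.0 and 59.5 in M1 libraries, 78.2, 84.1 and 77.6 in M2 libraries and 74.3, 78.4 and 72.2 in M0 libraries. Its TAM libraries lay below its M0 libraries, but the change of -0.14 ± 0.08 was not called (adjusted p = 0.17), and it was called without M0 replicate 1 (adjusted p = 0.0179). Per length, Slc2a3 made up 36.9 to 38.6% of the 2 transporters' transcripts in TAM libraries, 22.4 to 24.0% in M1 libraries, 18.1 to 20.0% in M2 libraries and 16 to 20.3% in M0 libraries. Hexokinase 1, the form found in most tissues, fell: Hk1 had 95.7, 97.3 and 98.6 CPM in TAM libraries, 157, 155 and 175 in M1 libraries, 151, 156 and 146 in M2 libraries and 166, 153 and 152 in M0 libraries, a log2 change from M0 of -0.69 ± 0.09 (adjusted p = 5.82e-05). Hexokinase 2, the inducible form common in tumours, had 217, 214 and 224 CPM in TAM libraries, 211, 233 and 218 in M1 libraries, 227, 299 and 245 in M2 libraries and 134, 309.8 and 244 in M0 libraries. M0 replicate 1 was the lowest of all 12 for Hk2 and the M0 libraries spanned those of TAM. The change of -0.07 ± 0.23 was not called (adjusted p = 0.82, and 0.0579 without that library).

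The next enzymes, glucose phosphate isomerase and phosphofructokinase, fell in all their forms. Gpi1 had 368, 374 and 358 CPM in TAM libraries, 710.0, 736 and 741 in M1 libraries, 902, 1026 and 996 in M2 libraries and 1581, 1038 and 959 in M0 libraries. The TAM libraries lay below all others and the log2 change from M0 was -1.70 ± 0.16 (adjusted p = 1.06e-05). Without M0 replicate 1 it was -1.45. Phosphofructokinase commits sugar to glycolysis and has liver (Pfkl), muscle (Pfkm) and platelet (Pfkp) forms. Pfkl had 65.5, 67.6 and 62.6 CPM in TAM libraries, 158, 194 and 169.5 in M1 libraries, 209, 271 and 239 in M2 libraries and 338, 256 and 209.6 in M0 libraries. For Pfkm the values were 19.9, 22.6 and 20.5 CPM in TAM libraries, 64.6, 65.1 and 66.0 in M1 libraries, 70.2, 78.1 and 74.4 in M2 libraries and 102, 70.0 and 74.5 in M0 libraries. Both fell, by 4.10-fold and 3.92-fold against M0 (log2 -2.04 ± 0.17 and -1.97 ± 0.14, adjusted p = 4.02e-06 and 1.04e-06). These falls were 3.57-fold and 3.45-fold without M0 replicate 1. Pfkp had 93.0, 99.4 and 99.7 CPM in TAM libraries, 258, 249.6 and 258 in M1 libraries, 204, 219 and 214 in M2 libraries and 226, 216 and 197 in M0 libraries. It fell in TAM libraries (log2 -1.13 ± 0.09, adjusted p = 1.55e-06), and its M1 libraries lay above those of every other group.

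The PFKFB enzymes set fructose 2,6-bisphosphate, the strongest activator of phosphofructokinase, and the form with the highest kinase activity rose while phosphofructokinase fell. Pfkfb3 (ENSMUSG00000026773, chr2:11471433-11554077, minus strand) had 94.1, 106.8 and 97.6 CPM in TAM libraries, 33.7, 30.7 and 35.5 in M1 libraries, 42.4, 42.5 and 38.8 in M2 libraries and 22.5, 39.2 and 39.9 in M0 libraries. Every TAM library exceeded all 9 others, and the gene rose 2.94-fold against M0 (log2 1.55 ± 0.18, adjusted p = 4.64e-05). Pfkfb4 had 7.68, 5.53 and 6.23 CPM in TAM libraries, 11.9, 11.3 and 12 in M1 libraries, 9.39, 9.02 and 8.20 in M2 libraries and 11.4, 8.64 and 9.44 in M0 libraries, and it fell (log2 -0.60 ± 0.15, adjusted p = 0.0057). Pfkfb2, the form known from heart, averaged 10.6 ± 0.849 CPM in TAM libraries and 10.9 ± 5.88 in M0 libraries (SD, n = 3 each), with M0 replicate 1 far below the 2 other M0 libraries, and was not called (adjusted p = 0.942). Without that library it was called lower at log2 -0.42 ± 0.12 (adjusted p = 0.00171). Tigar, a p53-induced phosphatase that breaks down the same activator, averaged 45.5 ± 0.938 CPM in TAM libraries and 51.2 ± 2.93 in M0 libraries and was not called (adjusted p = 0.113, and 0.00215 without M0 replicate 1). Pfkfb3 made up 81.1 to 84.1% of the 3 PFKFB genes' transcripts per length in TAM libraries, against 50.5 to 58.7% in M0 libraries.

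Aldolase splits the 6-carbon sugar, and its brain form showed the deepest fall among the 33 genes. Aldoc (ENSMUSG00000017390, chr11:78322968-78327781, plus strand) had 4.44, 3.54 and 3.06 CPM in TAM libraries, 34.8, 31.5 and 32.7 in M1 libraries, 28.7, 33.1 and 31.3 in M2 libraries and 45.0, 26.6 and 24.8 in M0 libraries. The 3 TAM libraries lay far below the others, and the fall against M0 was 8.72-fold (log2 -3.12 ± 0.23, adjusted p = 1.58e-06). It was 6.99-fold without M0 replicate 1. Aldoa, the main form, had 1052, 1064 and 969 CPM in TAM libraries, 1384, 1492 and 1457 in M1 libraries, 1577, 1695 and 1662 in M2 libraries and 3495, 1818 and 1633 in M0 libraries. It too fell, with a log2 change of -1.17 ± 0.23 (adjusted p = 0.00162), or -0.75 ± 0.05 without M0 replicate 1, the library with the highest level. Triose phosphate isomerase, which makes the products of aldolase interchangeable, had 696, 669.6 and 647 CPM in TAM libraries, 1261, 1407 and 1307 in M1 libraries, 1496, 1730.4 and 1694 in M2 libraries and 3038, 1764 and 1550.5 in M0 libraries. The TAM libraries again lay lowest, at a log2 change from M0 of -1.66 ± 0.21 (adjusted p = 7.47e-05). Leaving out M0 replicate 1 made that change -1.31. A second identifier named Aldoa, at most 2.35 CPM in any library, was left out.

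From triose phosphate to pyruvate, every gene fell in TAM libraries except Eno2. Gapdh, which makes the NADH of glycolysis and often serves as a loading control, had 243, 245 and 236 CPM in TAM libraries, 371, 386 and 378 in M1 libraries, 442, 500.2 and 498 in M2 libraries and 722, 498 and 418 in M0 libraries. It fell 2.26-fold against M0 (log2 -1.18 ± 0.17, adjusted p = 0.000163). Without M0 replicate 1 its log2 change was -0.93. Pgk1 and Pgam1, the kinase and mutase that follow, averaged 1195 ± 29.2 and 365 ± 10.9 CPM in TAM libraries and 2226 ± 355 and 694 ± 50.2 CPM in M0 libraries (SD, n = 3 each), with log2 changes of -0.90 ± 0.12 and -0.93 ± 0.09 (adjusted p = 7.94e-05 and 1.47e-05). Bpgm, which makes 2,3-bisphosphoglycerate and is best known from red cells, had 32.8, 30.7 and 31.2 CPM in TAM libraries, 52.5, 54.7 and 52.3 in M1 libraries, 56.3, 57.1 and 59.8 in M2 libraries and 74.6, 54.6 and 60.4 in M0 libraries. Its log2 change was -1.0 ± 0.11 (adjusted p = 2.65e-05). Pkm, the pyruvate kinase of most tissues and tumours, had 1318, 1374 and 1289.8 CPM in TAM libraries, 3075, 3103 and 3050.0 in M1 libraries, 3230.4, 3488 and 3498 in M2 libraries and 5564, 3493 and 3350.4 in M0 libraries. It fell 3.12-fold (log2 -1.64 ± 0.17, adjusted p = 1.58e-05), and gene counts do not separate its PKM1 and PKM2 splice forms. The fall was 2.59-fold without M0 replicate 1.

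The 3 enolases, which make phosphoenolpyruvate, parted ways. Eno1, the common form, had 2115, 2193 and 2077 CPM in TAM libraries, 2704, 2967 and 2859.8 in M1 libraries, 4011, 4271 and 4325 in M2 libraries and 7293, 4364 and 4094 in M0 libraries. The order of the groups was TAM, M1, then M2 and M0, which overlapped, and Eno1 fell in TAM libraries by log2 -1.30 ± 0.18 against M0 (adjusted p = 0.000163). With M0 replicate 1 left out its log2 change was -0.996. Eno2, the enolase of neurons and neuroendocrine cells (ENSMUSG00000004267, chr6:124760053-124769673, minus strand), had 128, 132 and 129 CPM in TAM libraries, 25.4, 20.4 and 21.2 in M1 libraries, 24.1, 24.3 and 25.8 in M2 libraries and 29.9, 19.4 and 19.3 in M0 libraries. All 3 TAM libraries lay far above the 9 others, and the rise against M0 was 5.67-fold (log2 2.5 ± 0.17, adjusted p = 6.99e-07), or 6.67-fold without M0 replicate 1. Eno3, the muscle form, had 14.2, 15.8 and 16.6 CPM in TAM libraries, 28.9, 27.1 and 29.4 in M1 libraries, 26.1, 23.4 and 24.9 in M2 libraries and 48.5, 25.3 and 22.2 in M0 libraries. It fell by log2 -1.04 ± 0.24 (adjusted p = 0.00414), or -0.61 ± 0.09 without M0 replicate 1. Eno1 remained the main enolase: per length, Eno2 made up 6.32 to 6.47% of the 3 in TAM libraries, 0.758 to 1.03% in M1 libraries, 0.637 to 0.669% in M2 libraries and 0.457 to 0.528% in M0 libraries. Reads of Eno1, Gapdh, Pgk1, Pgam1, Ldha and Aldoa can also fit near-identical copies or pseudogenes, so their levels carry that uncertainty. Only copies whose symbols are built on the gene's own symbol were summed, and copies under other names were not counted. In CPM, not per length, the largest such sum was Eno1b, at most 127, against at least 2079 for Eno1 in every library. For the 5 others the copies so named summed to at most 16.6 CPM in any library, which sets no upper bound on all copies.

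At the end of the path, both lactate dehydrogenase genes and the lactate exporter of glycolytic cells fell together. Ldha (ENSMUSG00000063229, chr7:46841475-46855627, plus strand), the muscle-type subunit that favours lactate formation, had 545, 539 and 517 CPM in TAM libraries, 1201, 1414 and 1254 in M1 libraries, 1809.9, 2110.0 and 2038 in M2 libraries and 2967, 2132 and 1898 in M0 libraries. The TAM libraries lay below the M1 libraries and these below M2 and M0, and the fall in TAM libraries against M0 was 4.37-fold (log2 -2.13 ± 0.16, adjusted p = 1.42e-06). That fall was 3.79-fold without M0 replicate 1. Ldhb, the heart-type subunit that favours pyruvate, had 47.9, 49.6 and 50.8 CPM in TAM libraries, 143, 127 and 145 in M1 libraries, 169.9, 157 and 168 in M2 libraries and 345, 173 and 173 in M0 libraries. It fell 4.66-fold (log2 -2.22 ± 0.24, adjusted p = 2.06e-05), or 3.5-fold without M0 replicate 1, where its level was highest. Slc16a3 (ENSMUSG00000025161, chr11:120948480-120960868, plus strand) encodes MCT4, a lactate exporter, and had 35.5, 31.3 and 32.9 CPM in TAM libraries, 53.2, 70.2 and 56.4 in M1 libraries, 114, 153 and 126 in M2 libraries and 186, 159 and 117 in M0 libraries. It fell 4.63-fold in TAM libraries against M0 (log2 -2.21 ± 0.18, adjusted p = 3.69e-06). Leaving out M0 replicate 1 gave a fall of 4.14-fold. Slc16a1, the gene of MCT1, which carries lactate either way, had 133, 124 and 127 CPM in TAM libraries, 112, 113 and 115 in M1 libraries, 147, 149.7 and 150.4 in M2 libraries and 106, 155 and 146 in M0 libraries. The M0 libraries spanned those of TAM and the change of -0.08 ± 0.13 was not called (adjusted p = 0.607). Without M0 replicate 1, the lowest library, it was called at -0.24 ± 0.04 (adjusted p = 7.29e-06).

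Pyruvate dehydrogenase lets pyruvate carbon into the citric acid cycle and is switched off by its kinases. The kinases with the higher levels fell in TAM libraries while a scarce one and an enzyme subunit rose. Pdk1 had 12.9, 10.2 and 12.7 CPM in TAM libraries, 30.0, 41.8 and 32.5 in M1 libraries, 45.4, 60.5 and 47.5 in M2 libraries and 28.9, 58.8 and 42.3 in M0 libraries. It fell 3.63-fold against M0 (log2 -1.86 ± 0.24, adjusted p = 9.91e-05), or 4.22-fold without M0 replicate 1. Pdk3, the kinase with the highest level per length in every group, had 24.5, 25.4 and 24.4 CPM in TAM libraries, 57.5, 58.7 and 55.6 in M1 libraries, 44.4, 47.5 and 42.9 in M2 libraries and 58.6, 44.6 and 46.7 in M0 libraries. Its log2 change was -1.01 ± 0.11 (adjusted p = 2.06e-05). Pdk2, a kinase of broad tissue range, had 4.44, 4.23 and 3.92 CPM in TAM libraries, 1.56, 2.56 and 1.39 in M1 libraries, 1.44, 1.49 and 1.42 in M2 libraries and 2.01, 1.88 and 1.96 in M0 libraries. It rose 2.15-fold in TAM libraries against M0 (log2 1.10 ± 0.21, adjusted p = 0.00116) and went to 9.99 to 11.1% of the kinases' transcripts per length, against 2.32 to 2.56% in M0 libraries. The kinases together summed to 12.4 to 12.6 CPM per kb in TAM libraries and 24.3 to 27.2 in M0 libraries. Of the subunits of the enzyme itself, Pdhb averaged 158 ± 2.75 CPM in TAM libraries and 116 ± 10.6 in M0 libraries and rose (log2 0.44 ± 0.09, adjusted p = 0.0015). Pdha1, the subunit the kinases phosphorylate, averaged 126 ± 4.72 CPM in TAM libraries and 102 ± 32.7 in M0 libraries and was not called (adjusted p = 0.196, and 0.243 without M0 replicate 1).

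In medium from M1 macrophages a smaller set was lower, with the lactate exporter, Eno1 and Ldha changed most. In M1 libraries compared with M0 libraries, 11 of the 32 tested genes fell and 1 rose. Of all genes tested, 25.7% were called (13.5% lower, 12.2% higher), and the median log2 change was -0.25 for the 32 and -0.02 for all genes. Slc16a3 changed by -1.36 ± 0.18 (adjusted p = 0.000265), Eno1 by -0.88 ± 0.18 (adjusted p = 0.00498) and Ldha by -0.85 ± 0.15 (adjusted p = 0.00202). Without M0 replicate 1 these changes were smaller, at -1.16, -0.53 and -0.61. The other genes that fell were Ldhb, Gpi1, Tpi1, Pfkl, Gapdh, Pgam1, Pgk1 and Slc2a1, with log2 changes from -0.73 to -0.30, and the gene that rose was Pfkp, by 0.26 ± 0.08 (adjusted p = 0.0443). Leaving out M0 replicate 1 put the changes of these other genes between -0.43 (Pgam1) and -0.24 (Gapdh), and that of Pfkp at 0.34. Eno2, which rose in TAM libraries, stood at 22.3 ± 2.68 CPM in M1 libraries and 22.9 ± 6.07 in M0 libraries (SD, n = 3 each) and was not called (adjusted p = 0.891). Aldoc, which fell in TAM libraries, had a log2 change of 0.04 ± 0.21 in M1 libraries (adjusted p = 0.909). The count rests on single libraries. Without M0 replicate 1, 16 genes fell and 7 rose, against 47.1% of all genes called (22.9% lower, 24.3% higher). Pfkl was then no longer called (adjusted p = 0.0573), and those that rose were Hk1, Pfkp, Pfkfb4, Aldoc, Eno2, Eno3 and Pdk3, by log2 0.13 to 0.41. Without M1 replicate 1 or M1 replicate 3, 5 genes were called, all of them lower, while 15.3% and 15.7% of all genes were called. In a fit of the M1 and M0 libraries alone 1 was called, Slc16a3, with 9.3% of all genes called. Slc16a3 was called lower in every one of these fits.

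**Figure D3:**
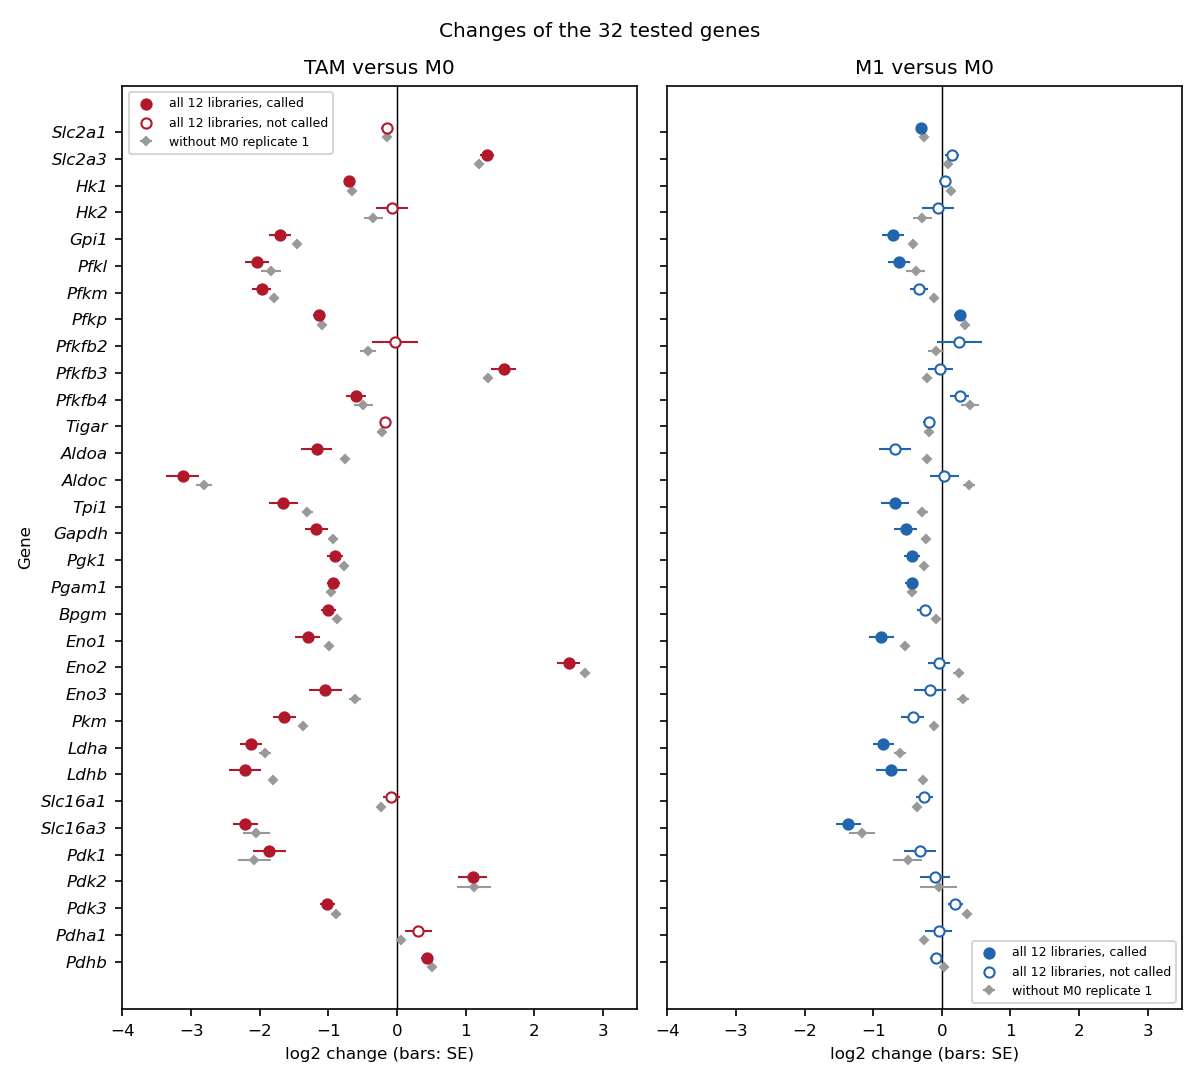
Log2 change of each of the 32 tested genes in TAM libraries (left) and M1 libraries (right) compared with M0 libraries, with bars of 1 SE. Filled circles were called with all 12 libraries, open circles were not, and grey diamonds give the fit without M0 replicate 1. Most genes lie left of 0 in both panels and further left for TAM. Eno2, Pfkfb3, Slc2a3 and Pdk2 lie to the right for TAM, and both panels share the same M0 libraries.

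Medium from M2 macrophages gave no called change. In M2 libraries compared with M0 libraries, 0 of the 32 genes were called by edgeR, which called 0% of all genes. At an unadjusted p under 0.05 edgeR marked 0 of the 32 and 980 of all genes, while DESeq2 called 7 of all genes and limma-voom 0, none of them among the 32. The log2 changes of the 32 lay between -0.49 (Aldoa) and 0.28 (Pfkfb3). Without M0 replicate 1 the fit called 0.341% of all genes, among them Eno2, which stood at 24.1, 24.3 and 25.8 CPM in M2 libraries and rose by log2 0.36 ± 0.08 (adjusted p = 0.0249).

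The comparison of TAM with M1 libraries sets neither against M0, but its calls share the filter, scaling and estimate of spread with the M0 libraries. There the path was lower in TAM medium than in M1 medium. Of the 32 genes, 19 fell and 5 rose in TAM libraries compared with M1 libraries, while 43% of all genes were called (23.3% lower, 19.8% higher), and the median of the 32 was -0.69. Without M0 replicate 1 in the fit, 22 fell and 7 rose, against 70.1% of all genes called (37.7% lower, 32.4% higher). The 5 that rose were Slc2a3, Pfkfb3, Eno2, Pdk2 and Pdhb. The largest differences were those of Aldoc (log2 -3.16 ± 0.23, adjusted p = 1.27e-06) and Eno2 (2.54 ± 0.17, adjusted p = 4.83e-07). Slc16a3 differed by -0.85 ± 0.18 (adjusted p = 0.00269) and Ldha by -1.27 ± 0.15 (adjusted p = 5.47e-05). Eno1 and Aldoa were not called there (adjusted p = 0.0859 and 0.109), and both were called lower once M0 replicate 1 was left out of the shared estimate of spread. In TAM compared with M2 libraries 22 genes fell and 5 rose, with 43.2% of all genes called (22.6% lower, 20.7% higher) and a median of -0.80. Without M0 replicate 1 these counts were 24 and 6, with 69.5% of all genes called (35.3% lower, 34.2% higher). In M1 compared with M2 libraries, Slc2a1 (-0.39 ± 0.08, adjusted p = 0.00701), Pgam1 (-0.42 ± 0.09, adjusted p = 0.00912), Ldha (-0.62 ± 0.15, adjusted p = 0.015) and Slc16a3 (-1.12 ± 0.18, adjusted p = 0.00114) fell and Pdk3 rose (0.35 ± 0.11, adjusted p = 0.0448). These are 5 of 32, with 17.2% of all genes called (7.5% lower, 9.72% higher), and 22 of the 32 were called without M0 replicate 1, against 48.3% of all genes (23.5% lower, 24.8% higher). Without M1 replicate 1 or M2 replicate 2 the count was 2 (11.3% and 11.5% of all genes called), without M1 replicate 3 or M2 replicate 3 it was 3 (11.7% and 11.5% of all genes), and without M0 replicate 3 it was 8 (17.5% of all genes).

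Ratios of isozyme pairs, taken within each library as log2 of the counts plus 0.5, do not depend on how libraries are scaled. They were tested over the 4 groups by an exact permutation test of all 15400 partitions of the 12 libraries, two-sided in that it takes any difference between groups, with a smallest possible p of 6.49e-05. The p-values were adjusted over the 10 pairs. An exact test of 3 libraries against 3 cannot go below 0.10, so single pairs of groups are described by their values. Eno2/Eno1 and Aldoc/Aldoa both reached the smallest p (6.49e-05, adjusted p = 0.000325), in opposite directions. Eno2/Eno1 was -4.04 ± 0.02 in TAM libraries, -7.00 ± 0.23 in M1 libraries, -7.41 ± 0.04 in M2 libraries and -7.82 ± 0.10 in M0 libraries (log2, SD, n = 3 each), so the means of TAM and M0 differed by 3.78. Aldoc/Aldoa was -8.13 ± 0.22 in TAM libraries, -5.45 ± 0.13 in M1 libraries, -5.73 ± 0.05 in M2 libraries and -6.14 ± 0.12 in M0 libraries. The brain-type aldolase was thus scarcer relative to the main form in TAM libraries, whereas the neuronal enolase was more plentiful.

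The transporters and the phosphofructokinase system also changed in makeup. Slc16a3/Slc16a1 was -1.95 ± 0.04 in TAM libraries, -0.93 ± 0.21 in M1 libraries, -0.20 ± 0.20 in M2 libraries and 0.18 ± 0.58 in M0 libraries (exact permutation p = 0.000325, adjusted p = 0.000974). MCT4 transcripts per length were 17.3 to 18.2% of the pair in TAM libraries, 28.3 to 34.0% in M1 libraries, 39.2 to 45.9% in M2 libraries and 40 to 59.5% in M0 libraries. Slc2a3/Slc2a1 was 0.33 ± 0.05 in TAM libraries, -0.67 ± 0.07 in M1 libraries, -1.03 ± 0.09 in M2 libraries and -1.13 ± 0.21 in M0 libraries (exact permutation p = 0.00039, adjusted p = 0.000974). Pfkfb3/Pfkfb4 was 3.95 ± 0.33 in TAM libraries, 1.5 ± 0.06 in M1 libraries, 2.22 ± 0.04 in M2 libraries and 1.75 ± 0.66 in M0 libraries (exact permutation p = 0.00214, adjusted p = 0.00429). Pfkp/Pfkl had like values in TAM and M1 libraries, 0.58 ± 0.08 and 0.56 ± 0.18, above -0.17 ± 0.14 in M2 libraries and -0.30 ± 0.25 in M0 libraries (exact permutation p = 0.00461, adjusted p = 0.00768). The platelet form thus gained on the liver form in both, although its own level rose in M1 libraries and fell in TAM libraries against M0.

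Other pairs showed less. Pdk3/Pdk1 was 1.06 ± 0.22 in TAM libraries, 0.74 ± 0.23 in M1 libraries, -0.18 ± 0.16 in M2 libraries and 0.25 ± 0.71 in M0 libraries (exact permutation p = 0.0328, adjusted p = 0.0468). This call was lost in 10 of the 12 fits that left out 1 library, and without M0 replicate 1 the difference between TAM and M0 libraries was 1.19 (adjusted p = 0.00574). Ldhb/Ldha was -3.43 ± 0.08 in TAM libraries, -3.22 ± 0.22 in M1 libraries, -3.59 ± 0.17 in M2 libraries and -3.40 ± 0.27 in M0 libraries, with no call (exact permutation p = 0.24, adjusted p = 0.24), although each gene fell in TAM libraries against M0. Pfkm/Pfkl, with means from -1.69 to -1.41, was not called either (exact permutation p = 0.112, adjusted p = 0.129). Hk2/Hk1 was 1.17 ± 0.03 in TAM libraries, 0.44 ± 0.14 in M1 libraries, 0.76 ± 0.18 in M2 libraries and 0.46 ± 0.68 in M0 libraries (exact permutation p = 0.116, adjusted p = 0.129), and M0 replicate 1 was the lowest of all 12. Without that library the adjusted p was 0.00812, and without M0 replicate 2 it was 0.0189.

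**Figure D4:**
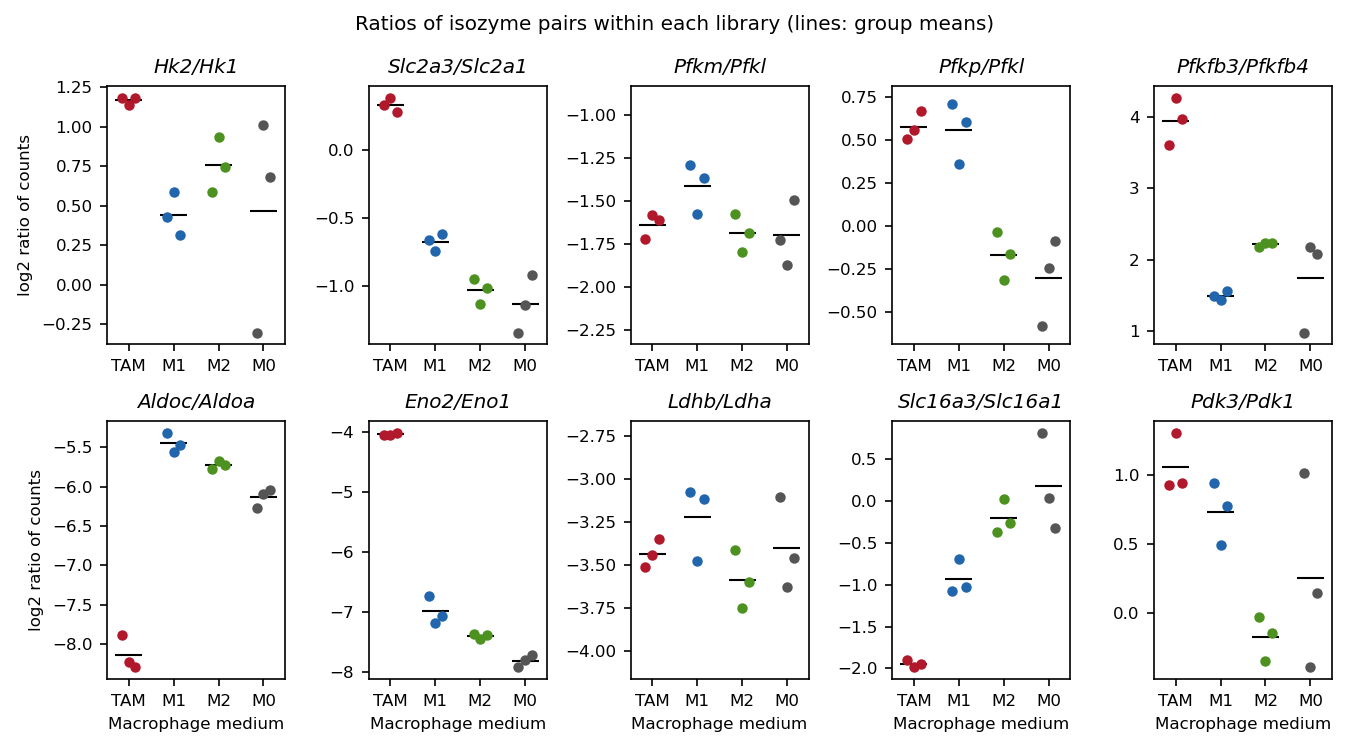
Log2 ratio of the counts of 2 isozyme genes in each library, 1 panel per pair and 1 point per library, with lines at the group means. The 3 TAM libraries of Eno2/Eno1, Slc2a3/Slc2a1 and Pfkfb3/Pfkfb4 lie above all others, those of Aldoc/Aldoa and Slc16a3/Slc16a1 lie below all others, and M0 replicate 1 is the leftmost grey point of each panel.

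Genes around the path were counted in 6 further lists. Of all genes tested, 50.5% were called in TAM libraries and 25.7% in M1 libraries compared with M0, or 66.7% and 47.1% without M0 replicate 1, and each list is given beside these shares. Among regulators of glycolytic genes, 9 of 20 tested rose and 6 fell in TAM libraries (75% called), and 1 rose and 5 fell in M1 libraries (30%). Leaving out M0 replicate 1 made these counts 11 and 7 in TAM libraries and 3 and 8 in M1 libraries. Txnip, whose product holds back glucose uptake, had 160.4, 207 and 181 CPM in TAM libraries, 61.1, 75.4 and 63.2 in M1 libraries, 17.9, 23.6 and 20.3 in M2 libraries and 18.7, 21.0 and 18.0 in M0 libraries. It rose in both, by log2 3.25 ± 0.15 in TAM libraries (adjusted p = 5.61e-08) and 1.79 ± 0.14 in M1 libraries (adjusted p = 4.28e-06), and its TAM libraries exceeded its M1 libraries. Myc had 189.9, 204 and 197 CPM in TAM libraries and 55.2, 64.7 and 67.6 in M0 libraries and rose by 1.66 ± 0.10 (adjusted p = 3.59e-07). Egln1 and Egln3, prolyl hydroxylases that mark HIF for breakdown, fell by -1.63 ± 0.12 and -2.18 ± 0.32 in TAM libraries (adjusted p = 1.42e-06 and 0.000205) and by -1.13 ± 0.12 and -1.25 ± 0.30 in M1 libraries (adjusted p = 4.39e-05 and 0.0107). The part of these regulators in the changes of the glycolytic genes was not tested.

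The side branches moved in part. Of 13 genes of the glycerol phosphate, sorbitol and hexosamine branches, 2 rose and 6 fell in TAM libraries (61.5% called, against 50.5% of all genes) and 2 rose and 4 fell in M1 libraries (46.2%, against 25.7%), each compared with M0. When M0 replicate 1 was left out, 3 rose in both, and 8 fell in TAM libraries and 6 in M1 libraries. Pgp, a phosphatase of glycerol phosphate and of glycolytic side products, changed by -2.22 ± 0.20 in TAM libraries and -1.18 ± 0.19 in M1 libraries, and Gpd1, which links glycolysis to glycerol phosphate, by -1.54 ± 0.12 and -1.34 ± 0.12 (all called). Of 10 genes of the pentose phosphate pathway 1 rose and 2 fell in TAM libraries (30%, below the 50.5% of all genes), and 2 rose and 2 fell in M1 libraries (40%). Leaving out M0 replicate 1 raised the TAM count to 5 up and 4 down (90%, against 66.7% of all genes) and left that of M1 at 2 and 2. G6pdx, which opens that pathway, rose by 0.62 ± 0.15 in TAM libraries (adjusted p = 0.00548) and 0.72 ± 0.15 in M1 libraries (adjusted p = 0.00557), while Tkt, a transketolase of its later part, fell by -1.16 ± 0.17 and -0.62 ± 0.17, the M1 value being -0.30 ± 0.04 without M0 replicate 1. Of 15 tested genes of gluconeogenesis and glycogen, 3 rose and 5 fell in TAM libraries (53.3%, near the 50.5% of all genes), and 0 rose and 5 fell in M1 libraries (33.3%, against 25.7%). The counts without M0 replicate 1 were 3 up and 9 down in TAM libraries and 3 up and 6 down in M1 libraries. Pck2, the mitochondrial enzyme that makes phosphoenolpyruvate from oxaloacetate, had 249, 261 and 251 CPM in TAM libraries, 106.9, 82.4 and 104 in M1 libraries, 76.4, 55.2 and 68.8 in M2 libraries and 126, 51.0 and 58.9 in M0 libraries, and rose in TAM libraries by 1.69 ± 0.29 (adjusted p = 0.000678). The glycogen phosphorylase gene Pygl changed by -1.47 ± 0.16 (adjusted p = 1.89e-05).

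Of 16 genes of pyruvate use in mitochondria, 5 rose and 7 fell in TAM libraries compared with M0 (75%, against 50.5% of all genes), and 1 rose and 2 fell in M1 libraries (18.75%, against 25.7%). In the fit without M0 replicate 1, 6 rose and 8 fell in TAM libraries, and 1 rose and 8 fell in M1 libraries. Gpt2, which turns pyruvate into alanine in mitochondria, rose in both, by 1.46 ± 0.13 in TAM libraries (adjusted p = 6.43e-06) and 0.61 ± 0.13 in M1 libraries (adjusted p = 0.00578), while its cytosolic relative Gpt fell in TAM libraries by -1.35 ± 0.27 (adjusted p = 0.00186). Pdp1 and Pdp2, the phosphatases that switch pyruvate dehydrogenase back on, parted in TAM libraries, with changes of 1.10 ± 0.22 and -0.99 ± 0.17 (adjusted p = 0.00196 and 0.00057). Among 16 tested minor isozymes and other sugar transporters, 4 rose and 5 fell in TAM libraries (56.25%, against 50.5% of all genes) and 4 rose and 2 fell in M1 libraries (37.5%, against 25.7%). With the other 11 libraries alone, 5 rose in both, and 5 fell in TAM libraries and 3 in M1 libraries. Slc2a6, a lysosomal transporter of the GLUT family, had 12.6, 14.5 and 13.0 CPM in TAM libraries, 126, 156 and 140.0 in M1 libraries, 24.3, 24.2 and 22.7 in M2 libraries and 42.5, 21.3 and 20.6 in M0 libraries. It rose in M1 libraries by 2.32 ± 0.24 (adjusted p = 4.39e-05) and fell in TAM libraries by -1.07 ± 0.24 (adjusted p = 0.00352), or -0.65 ± 0.09 without M0 replicate 1. These comparisons with M0 share its 3 libraries.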

How the data were processed

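RNA of 12 B16F10 libraries in 4 groups of 3 was measured by mRNA sequencing after Trizol extraction, per the labels' protocols. The deposited values are unnormalised counts of reads per gene, in 1 table that the authors made from all libraries. HISAT2 2.0 and mm10, a mouse build, appear with no role, per the submitters' processing notes. On the read counter, annotation, filters and strand nothing is given in the sources used here, so antisense neighbours and near-identical copies can share reads.

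The 33 genes, the 6 further lists and the marker lists were chosen with earlier results of these data known. The analysis used edgeR 4.0.16 under R 4.3.3: filterByExpr by group, TMM scaling and 1 robust quasi-likelihood fit of all 12 libraries with a mean per group and no replicate block. In each of 6 comparisons the Benjamini-Hochberg adjustment took in 14591 genes, and over 14968 without M0 replicate 1, with a threshold of 0.05. SE is the log2 change divided in size by the square root of F. CPM are counts relative to TMM-scaled totals. Isozyme ratios used counts plus 0.5. Symbols, coordinates and exon lengths came from GENCODE M21 (GRCm38, the same assembly as mm10), which held 55227 of the 55487 identifiers. Start windows came from RefSeq.

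Values in every library are given for genes called against M0 with an absolute log2 change of at least 1, with all 12 libraries or without M0 replicate 1, and for both genes of each ratio. Genes named from the other lists were taken from the called genes with the 2 largest rises and the 2 largest falls per list in TAM and M1 libraries against M0. Alternatives were RLE size factors, no filter on low counts, DESeq2 1.42.0, limma-voom (limma 3.58.1), a replicate block, a fit of the 2 groups alone, a count of 5 added in the ratios, and leaving out each library. The fits were tested on simulated data. No libraries agreed within sampling noise, with a chi-square per gene of at least 2.31 within every group.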

Additional observations from a re-analysis of the deposited data

How the results depend on the processing

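The 22 changes of at least 1 on the log2 scale named above kept direction and call in all 396 alternative values. The counts of the 32 tested genes called in TAM libraries against M0, M1 and M2 stayed within 1.5 times under every alternative, as did the genes called over the whole table in TAM against M0, except that a fit of these 2 groups alone called 4619. Other counts moved. In M1 against M0, 7 of the 32 genes were called with no filter on low counts and 1 in a fit of the 2 groups alone, which called 1282 genes in all. Leaving out 1 library gave 5 to 23 of the 32 and 2287 to 7056 of all genes. In M2 against M0, DESeq2 called 7 genes, and leaving out 1 library gave 0 to 51 genes and 0 to 1 of the 32. In M1 against M2, the count was 2 of the 32 with no filter on low counts, 9 with DESeq2, 21 in a fit of the 2 groups alone and 2 to 22 when 1 library was left out, and of all genes 6952 were called by the 2 groups alone and 1686 to 7233 without 1 library. No share of all genes is given beside the counts of the 32 with no filter on low counts or with DESeq2. Those counts are therefore not read as results about these genes. Over all genes TAM against M1 gave 10301 and TAM against M2 gave 10182 with the 2 groups alone, and 5176 to 10489 and 5205 to 10407 without 1 library. The highest of each of these ranges came from leaving out M0 replicate 1, which lowered the common dispersion to 0.00166, against 0.0324 with all 12 libraries.

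Among the ratios, the difference between TAM and M0 means spanned 0.32 to 0.98 for Hk2/Hk1, -0.03 to 0.16 for Pfkm/Pfkl, -0.15 to 0.11 for Ldhb/Ldha and 0.48 to 1.19 for Pdk3/Pdk1 when 1 library was left out. The sign turned for Pfkm/Pfkl without M0 replicate 2 (-0.027) and for Ldhb/Ldha without M0 replicate 1 (0.11) or TAM replicate 1 (0.0017), none of them called. The cause was not tested. The 6 other ratios kept direction and call, also with a count of 5 added.

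Replicate numbers are shared by the groups, but deviations of equally numbered libraries correlated at only -0.129 to 0.163, so they were not treated as pairs. With a replicate block, 26 of the 32 genes were called in TAM against M0 and 9 in M1 against M0 (7071 and 3156 of all genes), and the block changed the side of the threshold for no ratio, with an adjusted p of 0.00868 for Eno2/Eno1 and 0.0471 for Pdk3/Pdk1. Depth limits the scarce genes most, Pdk2 at 1.39 to 4.44 CPM among them.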

Other observations

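Further genes beside the path were called against M0. Slc2a4, the insulin-regulated glucose transporter, had 1.62, 2.32 and 2.03 CPM in M1 libraries and 7.75, 5.82 and 6.52 in M0 libraries and fell (log2 -1.75 ± 0.17, edgeR adjusted p = 1.9e-05). Emb, a partner protein of the lactate transporters, had 106, 109 and 101 CPM in M1 libraries and 61.5, 58.0 and 58.1 in M0 libraries and rose (log2 0.83 ± 0.09, adjusted p = 3.74e-05). Prps2, which makes the ribose donor of nucleotide synthesis, had 13.3, 13.7 and 14.4 CPM in TAM libraries and 23.1, 36.9 and 42.9 in M0 libraries and fell (log2 -1.32 ± 0.18, adjusted p = 0.000133). Slc37a4, the glucose phosphate carrier of the endoplasmic reticulum, fell by log2 -1.47 ± 0.17 in TAM libraries (adjusted p = 4.26e-05).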
